A study of Homo sapiens with 11 samples.

Results

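The glucocorticoid receptor target genes FKBP5, TSC22D3, PER1, KLF9, SGK1, CEBPD and ERRFI1 were followed in MDA-MB-231 cells. They were taken by gene symbol from the platform annotation, keeping probe sets annotated to exactly 1 symbol. This rule left 6 of the 7 genes measured, on 15 probe sets, among 19775 genes in all. PER1, a repressor of the circadian clock, had 4 probe sets, each annotated to MIR6883 as well, and it was not analysed here. FKBP5 and TSC22D3 were read by 3 probe sets each, KLF9 by 5, CEBPD by 2, and SGK1 and ERRFI1 by 1 each.

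MDA-MB-231 cells are an established line from a human triple-negative breast cancer. The study asked how free and albumin-bound estradiol change early gene expression in these cells, and measured RNA on 11 Affymetrix arrays in 9 groups. The arrays were 2 of E2-BSA (estradiol linked to the carrier bovine serum albumin, 1 µM), and 1 each of the combinations E2-BSA+ICI and E2-BSA+G15, of ICI (10 µM), G15 (10 µM), free estradiol (1 µM), carrier BSA (1 µM) and ethanol, the vehicle of estradiol (0.1%), with 2 of the untreated control. All cells spent 4 h in charcoal-stripped serum, which is depleted of steroids, before 3 h of treatment. No group received a glucocorticoid, so none shows what these genes do when the receptor is activated. G15 blocks GPER, a membrane receptor for estrogen, and the labels name ICI by this abbreviation alone. The labels do not say whether the duplicates were separate cultures. The p-values measure only the spread between these arrays left by the fit described below. That spread may be technical, and it is not a plain spread between repeats of the same treatment.

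The glucocorticoid receptor, encoded by NR3C1, rests in the cytoplasm bound to HSP90 and its co-chaperones. On binding cortisol it enters the nucleus and induces genes through response elements that often lie far from the start site. Several of its targets limit signalling: FKBP5 lowers the receptor's own affinity for hormone, TSC22D3 (also called GILZ) restrains inflammatory transcription, and ERRFI1 (MIG6) inhibits the EGF receptor. SGK1 is a serine/threonine kinase of ion transport and cell survival, and KLF9 and CEBPD are transcription factors. Most of these genes also answer to signals other than steroids, such as cytokines, growth factors, cAMP and stress.

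In the set of 8 arrays described next, the 3 members that were highest in the ethanol array were SGK1, TSC22D3 and ERRFI1, and for that reason 1 stretch before a start site is shown for each. The stretches are the 250 bases upstream, 5′ to 3′, from RefSeq on GRCh38.p14, all on the minus strand, at chr6:134174867-134175116 for SGK1 (1 of 3 starts), chrX:107717063-107717312 for TSC22D3 (1 of 4 starts) and chr1:8026310-8026559 for ERRFI1. Capitals mark the cAMP motif TGACG on either strand.
SGK1: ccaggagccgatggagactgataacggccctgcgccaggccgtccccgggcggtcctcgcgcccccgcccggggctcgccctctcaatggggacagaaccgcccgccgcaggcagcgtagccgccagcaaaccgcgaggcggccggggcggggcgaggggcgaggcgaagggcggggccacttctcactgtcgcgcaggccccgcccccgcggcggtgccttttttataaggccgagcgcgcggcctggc
TSC22D3: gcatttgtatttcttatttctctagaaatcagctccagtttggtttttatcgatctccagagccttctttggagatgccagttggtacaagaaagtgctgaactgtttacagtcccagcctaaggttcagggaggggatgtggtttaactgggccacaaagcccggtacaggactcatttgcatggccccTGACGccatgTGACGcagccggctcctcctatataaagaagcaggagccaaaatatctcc
ERRFI1: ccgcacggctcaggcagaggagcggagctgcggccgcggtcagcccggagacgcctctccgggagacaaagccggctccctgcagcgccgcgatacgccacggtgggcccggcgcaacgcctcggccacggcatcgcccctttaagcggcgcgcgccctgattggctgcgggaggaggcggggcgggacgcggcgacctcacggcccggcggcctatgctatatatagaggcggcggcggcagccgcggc
The motif TGACG occurred in 2 of the 12 member starts in the table, both of TSC22D3, and in 21.2% of 35116 promoters of the same length. The TSC22D3 start shown is the one with the most copies, 2. Another start of that gene held 1 and its remaining starts 0. The full glucocorticoid response element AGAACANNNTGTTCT and its left arm AGAACA, searched on both strands, were in 0 of the 12 starts, against 0.00285% and 12.4% of all promoters. The palindrome TGACGTCA, which contains TGACG, was in 0 of 12 and in 1.65% of all. Of the 7 genes 6 matched the table by symbol, PER1 included and CEBPD not.

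The values are log2 values centred on each probe set, averaged over a gene's probe sets and shifted so that the median gene is level across arrays. They give differences between arrays and no level, so genes cannot be compared in abundance and markers of the cell line could not be checked. The arrays fell into a set of 3 and a set of 8 by their poly-A controls, bacterial RNAs spiked into the samples, whose mean was 1.40 to 1.62 in the first E2-BSA, the estradiol and the first control array and -0.56 to 0.10 in the other 8. All treatment differences below come from 1 limma fit to the 11 arrays with an additive term for each treatment and a term for the set, 3 residual degrees of freedom and Benjamini-Hochberg adjustment over all 19775 genes. The E2-BSA term also covers the E2-BSA+ICI and E2-BSA+G15 arrays, so its estimates assume that neither antagonist changes the E2-BSA difference. A call is an adjusted p under 0.05. Errors after ± are standard errors, and groups with 1 array are assumed to vary like the rest. A gene's own residual spread is the disagreement of its differences between matched arrays with and without E2-BSA. It therefore takes in any change of that difference by ICI, G15 or the set.

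Most members differed between the 2 sets of arrays. ERRFI1 stood at 0.75 (first E2-BSA), 1.01 (estradiol) and 0.98 (first control). In the set of 8 it was at -0.36 for the second E2-BSA array, -0.11 for the E2-BSA+ICI array, -0.36 for the array of E2-BSA+G15, -0.24 for ICI, -0.12 for G15, -0.19 for BSA, 0.10 for ethanol and -0.31 for the second control array. All arrays of the set of 3 were thus above all others, with the ethanol array nearest to them. CEBPD, a transcription factor of the acute-phase response, was at 0.54 (first E2-BSA), 0.65 (estradiol) and 0.50 (first control). Its values in the set of 8 were -0.38 (second E2-BSA array), -0.26 (E2-BSA+ICI), -0.30 (E2-BSA+G15), -0.19 (ICI), -0.39 (G15), 0.13 (BSA), 0.07 (ethanol) and -0.39 (second control array). Again the sets did not overlap, and the BSA and ethanol arrays were the highest of the 8.

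KLF9, a zinc finger transcription factor, was at 0.25 (first E2-BSA), 0.38 (estradiol) and 0.43 (first control). Across the set of 8 it ran only from -0.16 in the ICI array to 0.07 in the E2-BSA+ICI array, with a median of -0.05. The other arrays have treatment terms, so in this fit the set term compares only the first with the second control and E2-BSA arrays. In the test of the set term, a comparison added after the data were seen, limma called 4 of the 6 members, all higher in the set of 3, where 24.6% of all genes were called and 11.5% called higher. ERRFI1 was higher by 1.20 ± 0.13 (adjusted p = 9.2e-04), CEBPD by 0.91 ± 0.10 (adjusted p = 9.59e-04), SGK1 by 0.54 ± 0.14 (adjusted p = 0.0319) and KLF9 by 0.41 ± 0.12 (adjusted p = 0.0435). The calls of SGK1 and KLF9 were lost when the second E2-BSA array was left out, at 0.32 (adjusted p = 0.282) and 0.41 (adjusted p = 0.227), and also without the ICI or the E2-BSA+ICI array. SGK1 was further lost without the first E2-BSA array, at 0.37 (adjusted p = 0.179). KLF9 was further lost without the first control array, at 0.27, without the second, at 0.41, and with the median of its probe sets, at 0.30. TSC22D3 was at 0.38 ± 0.12 (adjusted p = 0.0566) and FKBP5 at -0.24 ± 0.16 (adjusted p = 0.333), neither passing. TSC22D3 passed with values as deposited (0.44, adjusted p = 0.0414), with the probe set of largest SD, and without either array that held G15. FKBP5 passed without the first E2-BSA array (-0.53, adjusted p = 0.0267), and was at 0.05 without the first control array.

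The sets held all 3 arrays above all 8 for ERRFI1, CEBPD and KLF9, 3 of 6 members, where 15.7% of all genes did so. None of the 6 had all 3 arrays below all 8, as 16.3% of all genes had. By more than 1 on the log2 scale, only ERRFI1 was higher in the first than in the second array of a duplicated group, by 1.11 in E2-BSA, where 2.61% of all genes were, and by 1.29 in control, where 2.86% were. What separates the sets is not in the labels, and its part in these values was not tested. The pairs of arrays set against each other below lie inside a set, except where said, and the comparisons of E2-BSA, ethanol, BSA and the antagonists share the control arrays.

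**Figure D1:**
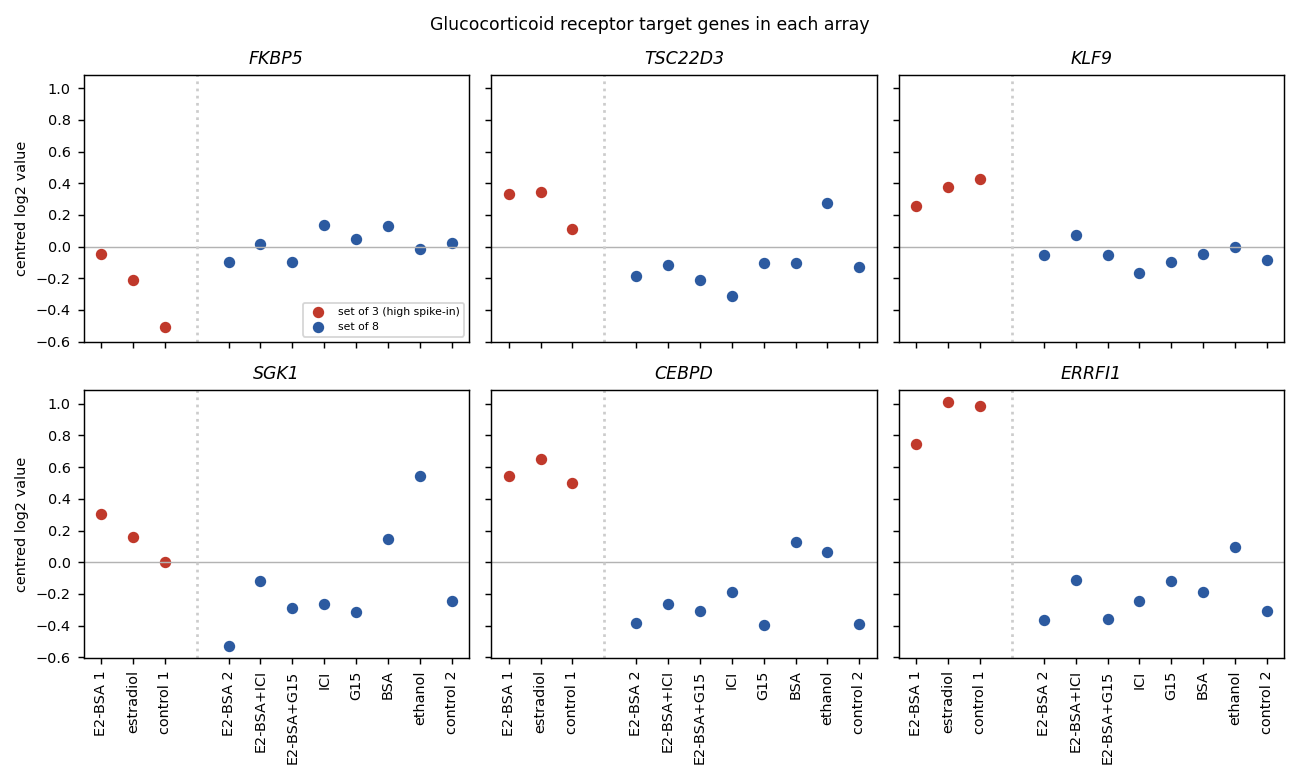
Centred log2 value (vertical axis) of each of the 6 measured genes in the 11 arrays (horizontal axis), 1 point per array. Red points are the 3 arrays with high spike-in controls and blue points the other 8. ERRFI1, CEBPD and KLF9 lie higher in all red than in all blue points, and SGK1 is highest in the ethanol array, at 0.55.

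E2-BSA was set against the matched array without it in 4 pairs: the first arrays, the second arrays, E2-BSA+ICI against ICI, and E2-BSA+G15 against G15. No member kept 1 direction relative to the median gene across the 4 pairs, where 7.08% of all genes were higher and 6.96% lower in all of them. FKBP5 differed by 0.47, -0.11, -0.11 and -0.14 in these pairs, in the order given. TSC22D3 differed by 0.23, -0.05, 0.20 and -0.11. KLF9 differed by -0.16, 0.04, 0.24 and 0.04. FKBP5 was thus higher in the first pair alone, and KLF9 lower in that pair alone.

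In the set of 3, SGK1 itself was at 0.30 (first E2-BSA), 0.16 (estradiol) and -0.0013 (first control), and FKBP5 at -0.04, -0.21 and -0.51 in the same arrays. SGK1 differed by 0.31, -0.27, 0.16 and 0.02 in the 4 pairs, so that the duplicated pairs pointed opposite ways. CEBPD stayed closest to the median gene, at 0.05, 0.01, -0.07 and 0.09. ERRFI1 was at -0.23, -0.05, 0.14 and -0.24. The range over the 4 pairs was 0.16 for CEBPD, 0.34 for TSC22D3, 0.37 for ERRFI1, 0.41 for KLF9, 0.58 for SGK1 and 0.61 for FKBP5, larger for each gene than its fitted difference below.

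In the limma fit no member was called between E2-BSA and control (0 of 6, where 0% of all genes were called), and 0 of 6 had an unadjusted p under 0.05, as 5.09% of all genes did. The estimates were 0.06 ± 0.08 for TSC22D3, 0.05 ± 0.10 for SGK1, 0.03 ± 0.09 for KLF9, 0.02 ± 0.11 for FKBP5, 0.01 ± 0.07 for CEBPD and -0.10 ± 0.09 for ERRFI1, with adjusted p between 0.885 and 0.982. The 95% intervals were narrowest for CEBPD, from -0.15 to 0.17, and widest for FKBP5, from -0.24 to 0.29. The interval of ERRFI1 ran from -0.31 to 0.11. The median member was at 0.03 and the median gene at -0.0068.

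**Figure D2:**
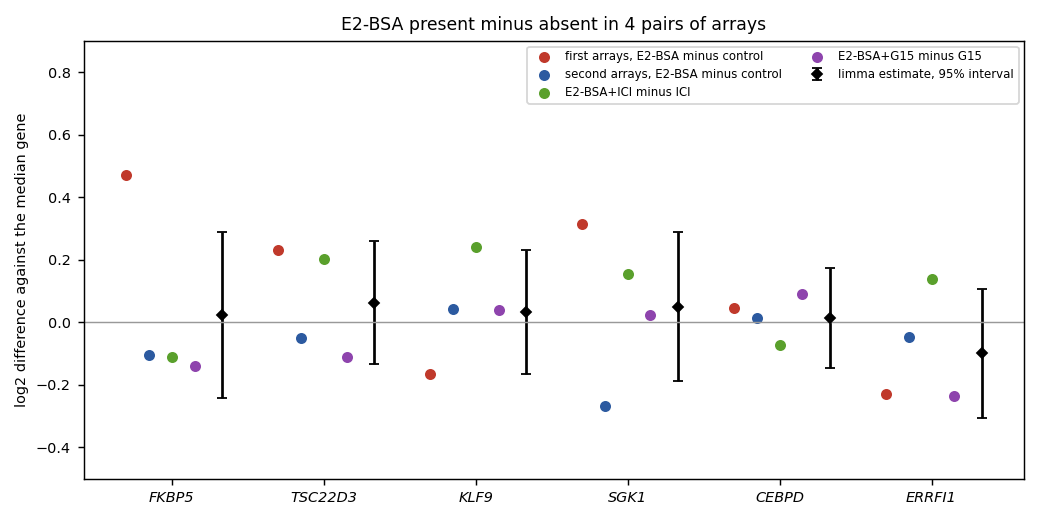
Log2 difference of arrays with E2-BSA minus the matched arrays without it (vertical axis), against the median gene, for the 6 genes. Coloured points are the 4 pairs, and the black diamond with its bar is the limma estimate over the 11 arrays with its 95% interval. Every interval includes 0, and the red point of FKBP5 at 0.47 is the farthest from it.

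Of 23 measured other genes known to be induced by glucocorticoids, 0 were called between E2-BSA and control, and their median was 0.01. The members of that list farthest from 0 were CAVIN2, a caveolar protein, at -0.29 ± 0.14, NFKBIA, an inhibitor of NF-kB, at 0.26 ± 0.09, and PIK3R1, a regulatory subunit of PI3 kinase, at -0.24 ± 0.08, each with adjusted p = 0.859. The receptor gene NR3C1 was at 0.04 ± 0.07 (adjusted p = 0.947), and 0 of the 12 measured genes of a list of NR3C1, the related receptor gene NR3C2, chaperones, cofactors and ligand enzymes were called.

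The ethanol array carried the highest values of the set of 8 for SGK1, TSC22D3 and ERRFI1, 3 of the 6 members, where 14.3% of all genes were highest in that array. SGK1 stood at 0.55 in the ethanol array, against -0.25 in the second control array. The other 6 arrays of the set had SGK1 between -0.53 (second E2-BSA array) and 0.15 (BSA). TSC22D3 was at 0.28 in the ethanol array and at -0.13 in the second control array, and ran from -0.31 to -0.10 in the other 6. CEBPD, second only to the BSA array here, was at 0.07 in the ethanol array and at -0.39 in the second control array.

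In the fit the differences of ethanol from control were 0.96 ± 0.18 for SGK1, 0.46 ± 0.15 for TSC22D3, 0.46 ± 0.12 for CEBPD and 0.38 ± 0.16 for ERRFI1. FKBP5 and KLF9 lay near 0, at 0.03 ± 0.21 and 0.08 ± 0.15. None of the 6 passed in limma (0 of 6), with adjusted p = 0.264 for SGK1 and between 0.487 and 0.991 for the others, where 0.0759% of all genes were called. At an unadjusted p under 0.05 stood 4 of the 6, the first-named genes, and 6.81% of all genes. The 95% interval of SGK1 ran from 0.53 to 1.39, and its estimate over the alternatives tried from 0.69 to 1.23. Without the term for the set CEBPD was at 0.0064 and ERRFI1 at -0.22. None of the 6 was higher than the second control array by more than 1, as 0.248% of all genes were.

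The probe sets of a gene differed in this comparison. For TSC22D3 the difference between the ethanol array and the second control array was 0.87 on 208763_s_at, and 0.17 on each of 207001_x_at and 235364_at. For CEBPD it was 0.85 on 203973_s_at and 0.07 on 213006_at. SGK1 and ERRFI1 have 1 probe set each, at 0.79 and 0.41, so no second reading exists for them. The ethanol differences of TSC22D3 and CEBPD rest largely on 1 probe set each.

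Among the 23 other glucocorticoid-induced genes, 3 were called higher with ethanol, where 0.0759% of all genes were called. DDIT4, an inhibitor of mTOR signalling, was at 1.41 in the ethanol array and at -1.12 in the second control array, and rose by 2.31 ± 0.23 in the fit (adjusted p = 0.0205). RASD1, a Ras-like GTPase first described as dexamethasone-induced, was at 1.22 and -0.71 in the ethanol and second control arrays, and rose by 1.98 ± 0.19 (adjusted p = 0.0205). RGS2, a regulator of G protein signalling, was at 1.83 and -0.06 in the ethanol and second control arrays, and rose by 1.89 ± 0.21 (adjusted p = 0.0359). The 3 calls were lost without the term for the set, where DDIT4 was at 1.40 (adjusted p = 0.948), RASD1 at 1.12 (adjusted p = 0.948) and RGS2 at 1.78 (adjusted p = 0.389). They were also lost in the set of 8 alone, at 2.36, 2.00 and 1.87 in the same order (adjusted p = 0.0980, 0.170 and 0.0539), with the probe set of largest SD, and when either control array, either E2-BSA array, the ICI array or the E2-BSA+ICI array was left out. In the first control array, untreated but in the set of 3, DDIT4 was at 1.07, RASD1 at 1.03 and RGS2 at 0.08. The median of the list was 0.15 and that of the members 0.42, where the median gene was at -0.0068. NR3C1 was at -0.31 ± 0.13 (adjusted p = 0.724).

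Free estradiol could be set against the control inside the set of 3. In that pair, against the median gene, FKBP5 was at 0.28, TSC22D3 at 0.22, SGK1 at 0.15, CEBPD at 0.13, ERRFI1 at 0.01 and KLF9 at -0.06. The fit gave 0.16 ± 0.15 for TSC22D3, 0.13 ± 0.12 for CEBPD, 0.09 ± 0.16 for ERRFI1, 0.08 ± 0.21 for FKBP5, 0.05 ± 0.15 for KLF9 and 0.03 ± 0.18 for SGK1. The limma test called 0 of the 6, and 0% of all genes, with adjusted p from 0.935 to 0.997 for the members and 0 of 6 at an unadjusted p under 0.05. The widest 95% interval, that of FKBP5, ran from -0.40 to 0.55, and its estimate was -0.29 when the first control array was left out and 0.30 when the first E2-BSA array was left out. Without the term for the set ERRFI1 was at 0.69, CEBPD at 0.59, TSC22D3 at 0.35, SGK1 at 0.30, KLF9 at 0.26 and FKBP5 at -0.04, none of which passed. Estradiol minus the first E2-BSA array, the other pair of the set, ranged from -0.20 for FKBP5 to 0.23 for ERRFI1. The fit gave the estradiol array no ethanol term, so its differences from control include any effect of the vehicle.

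Against its vehicle, estradiol could be compared only across the sets, through the term for the set. SGK1 was at -0.92 ± 0.25 (adjusted p = 0.442), CEBPD at -0.33 ± 0.17 (adjusted p = 0.619), TSC22D3 at -0.31 ± 0.21 (adjusted p = 0.719), ERRFI1 at -0.29 ± 0.22 (adjusted p = 0.759), KLF9 at -0.03 ± 0.21 and FKBP5 at 0.04 ± 0.28. Limma called 0 of 6 members and 0% of all genes, with 1 of the 6, SGK1, at an unadjusted p under 0.05, as 8.92% of all genes were. Without the term for the set, ERRFI1 was at 0.91, CEBPD at 0.58, KLF9 at 0.38, TSC22D3 at 0.07, FKBP5 at -0.20 and SGK1 at -0.38, so that the direction of all but SGK1 turned. This comparison shares the ethanol array with that of ethanol and control. The other glucocorticoid-induced genes farthest from 0 were DDIT4 at -2.16 ± 0.31 (adjusted p = 0.181), RGS2 at -1.74 ± 0.28 (adjusted p = 0.230) and RASD1 at -1.70 ± 0.26 (adjusted p = 0.181). Against control they were ZBTB16 at -0.81 ± 0.18 (adjusted p = 0.379), LCN2 at -0.68 ± 0.14 (adjusted p = 0.367) and RASD1 at 0.27 ± 0.19 (adjusted p = 0.872).

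With the carrier protein BSA alone, CEBPD and SGK1 lay above the second control array, which is also in the set of 8. Against the first control array, which is outside that set, SGK1 was higher too, but CEBPD was lower, at 0.13 against 0.50. CEBPD was at 0.13 in the BSA array, the highest of the set of 8, against -0.39 in the second control array. It was the only 1 of the 6 members highest there, where 16.8% of all genes were. SGK1 was at 0.15 in the BSA array, second to ethanol, and at -0.25 in the second control array. The fit gave 0.56 ± 0.18 for SGK1 (95% interval from 0.13 to 0.99, adjusted p = 0.459) and 0.52 ± 0.12 for CEBPD (0.23 to 0.81, adjusted p = 0.241). FKBP5 was at 0.18 ± 0.21, ERRFI1 at 0.10 ± 0.16, TSC22D3 at 0.09 ± 0.15 and KLF9 at 0.04 ± 0.15, with adjusted p from 0.876 to 0.971.

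Limma called 0 of the 6 members between BSA and control, where 0.359% of all genes were called. At an unadjusted p under 0.05 stood 2 of 6 members, CEBPD and SGK1, and 8.64% of all genes. Both CEBPD probe sets gave a positive difference of the BSA array from the second control, of 0.63 on 203973_s_at and 0.40 on 213006_at. Without the term for the set the CEBPD difference was 0.07 and that of SGK1 0.29.

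Of 11 measured inflammatory genes that glucocorticoids are known to repress, 2 were called between BSA and control, both higher, where 0.359% of all genes were called: IL6 by 2.54 ± 0.13 (adjusted p = 0.00201) and the chemokine gene CCL20 by 1.38 ± 0.17 (adjusted p = 0.0186). Of the 23 other glucocorticoid-induced genes, NFKBIA, which NF-kB induces as well, was called higher, by 1.26 ± 0.16 (adjusted p = 0.0235). CAVIN2 at -0.68 ± 0.24 (adjusted p = 0.503) and LCN2 at -0.54 ± 0.14 (adjusted p = 0.329) were the next farthest of that list. Of the inflammatory list CXCL8 was the farthest, at 3.86 ± 3.09, and was not called. It was at 1.10 in the BSA array, -2.58 in the second control array and 2.11 in the first. Its error was far above the 0.13 of IL6, and how far limma's variance model set it was not tested. NFKBIA was at 0.85 in the BSA array, -0.40 in the second control array and 0.06 in the first. IL6 was at 0.84, -1.65 and 2.50 in the same order, and CCL20 at 1.20, -0.25 and 1.62. For IL6 and CCL20 the BSA array thus lay below the first control array, which is in the set of 3. All 3 calls were lost without the term for the set (IL6 at 0.41, CCL20 at 0.51, NFKBIA at 0.97) and without the second control array, at adjusted p = 0.0649, 0.394 and 0.372. IL6 was also lost in the set of 8 alone, at 2.52 (adjusted p = 0.430). CCL20 and NFKBIA were lost when the second E2-BSA, the ICI or the E2-BSA+ICI array was left out.

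E2-BSA against its carrier, which shares the BSA array with the comparison just given, placed SGK1 at -0.51 ± 0.18 (adjusted p = 0.524) and CEBPD at -0.51 ± 0.12 (adjusted p = 0.281). Inside the set of 8, SGK1 was at -0.53 in the second E2-BSA array and at 0.15 in the BSA array, and CEBPD at -0.38 and 0.13 in the E2-BSA and BSA arrays. The other members were at -0.20 ± 0.16 (ERRFI1), -0.15 ± 0.21 (FKBP5), -0.02 ± 0.15 (TSC22D3) and -0.0076 ± 0.15 (KLF9). Limma called 0 of 6, where 0.298% of all genes were called, and 2 of 6 had an unadjusted p under 0.05, as 8.56% of all genes did. IL6 fell by 2.18 ± 0.13 (adjusted p = 0.00296) and CCL20 by 1.63 ± 0.17 (adjusted p = 0.00953), again lost without the term for the set, at -0.04 and -0.76. IL6 was further lost in the set of 8 alone (adjusted p = 0.473) or without either E2-BSA array or the first control array, and CCL20 without the second control or second E2-BSA array. Without that term CEBPD was at -0.05, SGK1 at -0.24 and ERRFI1 at 0.40, and without the second E2-BSA array SGK1 was at -0.23. In the first E2-BSA array, in the set of 3, IL6 was at 3.01 and CCL20 at 1.26, above the BSA array. NFKBIA was at -1.01 ± 0.16 (adjusted p = 0.0771), and LCN2 and CAVIN2 at 0.40 ± 0.14 and 0.39 ± 0.24.

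**Figure D3:**
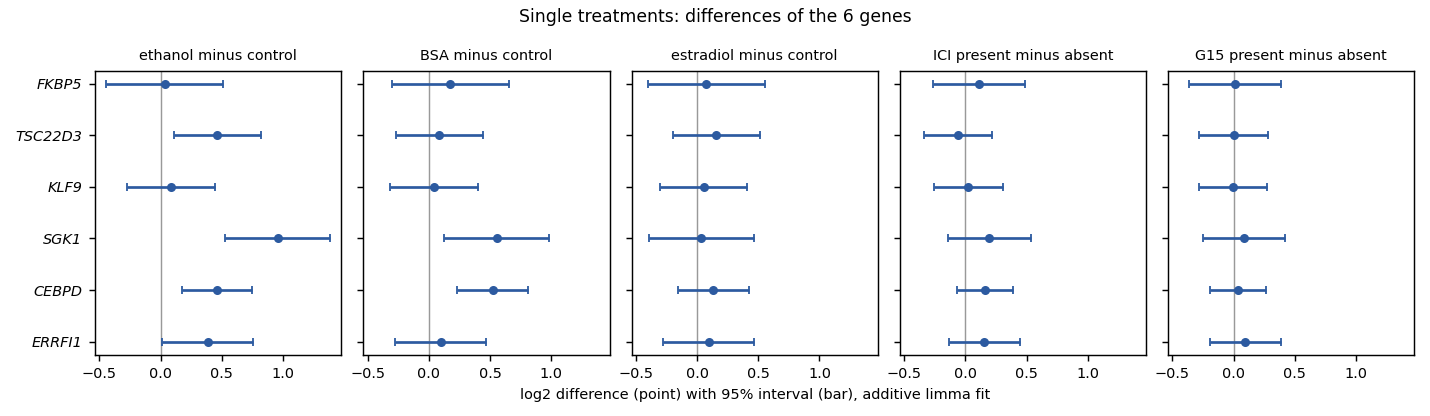
Log2 difference of each of the 6 genes (rows) for 5 treatments (panels), as the estimate of the additive limma fit (point) with its 95% interval (bar). With ethanol the intervals of SGK1, TSC22D3, CEBPD and ERRFI1 lie above 0, and with BSA those of SGK1 and CEBPD, while none passed after adjustment over all genes.

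No member was called with either antagonist. With ICI present, SGK1 was at 0.20 ± 0.14, CEBPD at 0.16 ± 0.10, ERRFI1 at 0.16 ± 0.13, FKBP5 at 0.11 ± 0.16, KLF9 at 0.02 ± 0.12 and TSC22D3 at -0.06 ± 0.12. Without the term for the set SGK1 was at -0.07, CEBPD at -0.29, ERRFI1 at -0.44 and KLF9 at -0.18. Leaving out 1 array gave SGK1 between -0.02 (without the second E2-BSA array) and 0.42 (without the second control array), and ERRFI1 between 0.0024 (without the E2-BSA+ICI array) and 0.31 (without the ICI array). In the ICI array minus the second control array, against the median gene, the members ran from -0.18 for TSC22D3 to 0.20 for CEBPD. Limma called 0 of 6 (adjusted p from 0.743 to 0.979) and 0% of all genes, with 0 of 6 members and 7.45% of all genes at an unadjusted p under 0.05. The farthest of the other glucocorticoid-induced genes were ZBTB16 at -0.27 ± 0.14, KLF15 at 0.25 ± 0.11 and RASD1 at -0.21 ± 0.15, none of which passed.

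With G15 present, ERRFI1 was at 0.10 ± 0.13 and SGK1 at 0.09 ± 0.14, and the other 4 members lay between -0.0044 for KLF9 and 0.04 for CEBPD. Without the term for the set ERRFI1 was at -0.50, CEBPD at -0.42 and SGK1 at -0.18, and SGK1 was between -0.13 (without the second E2-BSA array) and 0.31 (without the second control array). The G15 array minus the second control array ran from -0.07 for SGK1 to 0.18 for ERRFI1. In limma 0 of 6 passed (adjusted p from 0.909 to 0.999), as did 0% of all genes, with 0 of 6 members and 5.88% of all genes at an unadjusted p under 0.05. The widest 95% interval, of FKBP5, ran from -0.36 to 0.39. PIK3R1 at -0.34 ± 0.12, ANGPTL4 at 0.34 ± 0.13 and ZBTB16 at -0.21 ± 0.14 were the farthest of the other glucocorticoid-induced genes, none passing.

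The probe sets of 3 of the 4 genes with several did not follow each other. Those of FKBP5 correlated at -0.67 to 0.56 over the 11 arrays, those of TSC22D3 at -0.30 to 0.25 and the 5 of KLF9 at -0.71 to 0.63, given as a description over arrays that share the 2 sets. The pair of CEBPD correlated at 0.85. In KLF9 the mean of the set of 3 minus the mean of the set of 8 was 1.69 on 203543_s_at, which was at 1.41 to 1.67 in the set of 3 and at -0.25 to -0.03 in the set of 8, and between -0.26 and 0.39 on the other 4. In TSC22D3 it was 1.28 on 208763_s_at, 0.09 on 207001_x_at and -0.25 on 235364_at. In FKBP5 it was -0.65 on 204560_at, -0.59 on 224840_at and 0.43 on 224856_at. The gene means of these 3 genes therefore average readings that point different ways. When the probe set with the largest SD stood for the gene, the set term of TSC22D3 was 1.27 (adjusted p = 0.00177) and that of KLF9 1.64 (adjusted p = 0.00138).

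**Figure D4:**
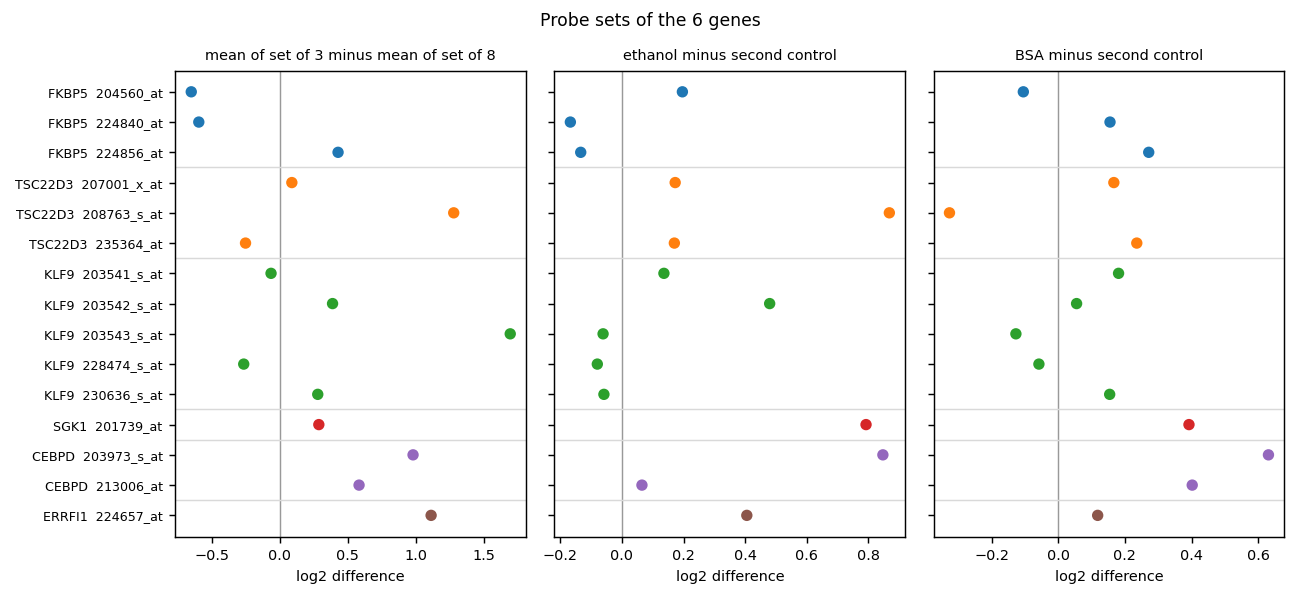
Log2 difference (horizontal axis) of each of the 15 probe sets (rows, coloured by gene) in 3 contrasts (panels): the mean of the set of 3 minus that of the set of 8, ethanol minus the second control, and BSA minus the second control. KLF9 203543_s_at at 1.69 and TSC22D3 208763_s_at at 1.28 stand apart from the other probe sets of their genes in the left panel.

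After the mean of each set was taken off, 13 of the 15 pairs of members had a correlation above 0 over the 11 arrays, with a median of 0.33. The highest were 0.83 for TSC22D3 with SGK1 and 0.83 for SGK1 with CEBPD, over all 11 arrays. The lowest was -0.59 for FKBP5 with KLF9. Without taking off the set means, KLF9 and ERRFI1 correlated at 0.95 and FKBP5 and KLF9 at -0.81. The share above 0 over all pairs of genes was not computed. In the set of 8 the ethanol array ranked first for SGK1, TSC22D3 and ERRFI1 and second for CEBPD and KLF9. Correlations without that array were not computed. The arrays share controls of a single experiment, so these values are descriptions.

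The genes most like the mean of the 6 members in the same measure were KLHL21 (Pearson's r of 0.95), RLF (0.95), DNTTIP2 (0.93), CDKN1A, the cell cycle inhibitor p21 (0.93), and HEY1 (0.92), over 11 arrays. For single members the nearest gene was KLHL21 for SGK1 (0.96), VIM, which encodes vimentin, for TSC22D3 (0.96), SSUH2 for FKBP5 (0.93), ZNF697 for CEBPD (0.93), ATP2B2 for ERRFI1 (0.92) and NUPR1 for KLF9 (0.90). These are the highest of 19775 genes by choice.

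The paralogs of the members gave no call in any of the 8 treatment comparisons, for 12 measured genes. With ethanol the lowest difference was -0.08, and the highest was that of CEBPB, the relative of CEBPD, at 0.999 ± 0.14 (limma adjusted p = 0.0894). CEBPB was at 0.74 in the ethanol array and -0.32 in the second control array. Of 13 measured circadian clock genes, 0 were called in the same comparisons.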

How the data were processed

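The authors' deposited table holds log2 values of 54675 probe sets on 11 Affymetrix HG-U133 Plus 2.0 arrays, from -4.20 to 6.69. Summarisation, normalization and log base are not given in the sources used here, and the base was taken as 2. They were centred by probe set: in 51.0% of them the pair of values closest to 0 have equal size and opposite sign, to within 1e-05, so no level, filter on dim probes or pseudocount applied. Control and E2-BSA had 2 arrays each, the other 7 groups 1, which limits the precision.

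By the platform annotation 41091 probe sets had 1 symbol, 1801 several, and 11721 none listed, beside 62 Affymetrix controls. The gene ids of 41037 were found in RefSeq, and 0 symbols changed. Probe sets were averaged per gene, and each array was shifted so that the median gene's deviation from its mean over the arrays was 0, by up to 0.19 between arrays. The set of an array follows the largest gap (1.30, the next 0.39) in the mean of 24 poly-A probe sets. Limma 3.58.1 (R 4.3.3) gave the fits, with its variance trend. That trend ran over each gene's mean of the centred values, which is no expression level. The additive fit was also run on simulated tables with known differences. Alternatives changed the scaling, the set term, the probe set summary, the trend, the model and the arrays.

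The members and lists were chosen with earlier results of these data known, so no p was adjusted over a list. All members are named, and of other lists the genes called. The rule's 3 farthest genes of a list are named for the glucocorticoid-induced list only, and CXCL8 is named from the inflammatory list.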

Additional observations from a re-analysis of the deposited data

Results flagged for a closer look

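For 2 genes the E2-BSA difference in the first arrays was opposite in sign to that in all 3 pairs of the set of 8. FKBP5 was at 0.47 between the first E2-BSA and control arrays, and at -0.11, -0.11 and -0.14 in the other pairs. The fit's test of that difference between the sets gave 0.59 ± 0.15 for FKBP5, which did not pass (unadjusted p = 0.00685, adjusted p = 0.304). Its probe set 204560_at was at 0.05 in the first E2-BSA array and at -1.02 in the first control array, while 224840_at was at -0.41 and -0.54 and 224856_at at 0.24 and 0.04 in the E2-BSA and control arrays. KLF9 was at -0.16 in the first arrays and at 0.04, 0.24 and 0.04 in the other pairs, and its test gave -0.27 ± 0.17 (adjusted p = 0.612).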

How the results depend on the processing

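In the 8 treatment comparisons limma called 0 of the 6 members under every alternative run. Of 810 single values of members under an alternative, 718 kept their direction and 92, none of them called, changed sign. Counts of all genes called moved more. For E2-BSA minus BSA, 59 genes became 5 without the set term, 188 with the probe set of largest SD, and 0 to 78 with 1 array left out. For BSA minus control, 71 became 7, 206 and 0 to 115 in the same order, and for ethanol minus control 15 became 0, 0 and 0 to 17. For estradiol minus ethanol, 0 became 2 with values as deposited, 2 with the median of probe sets, 3 without the trend and 0 to 3 with 1 array left out. For ICI, 0 became 35 with a mean per group and 0 to 35 with 1 array left out, and for G15, 0 became 2 and 0 to 231. For the set term, leaving out 1 array gave 2 to 5 members called, and 1521 to 5753 genes in place of 4856. The replicate numbers of the labels are shared by E2-BSA and control. Their same-numbered arrays deviated together (r of 0.81 across 19775 genes), along the 2 sets. A fit to these 4 arrays with the replicate block called 0 members and 0 genes. The lowest counts came without the second control array for BSA, without the second E2-BSA array for E2-BSA minus BSA, and without either of these, the ICI or the E2-BSA+ICI array for ethanol. The highest for ICI and G15 came without the G15 array. For the sets, 2 members were called without the second E2-BSA, ICI or E2-BSA+ICI array. No change of a count was traced to a cause beyond the alternative itself. Signal over background could not be judged, since the values hold no level.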

Other observations

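ERRFI1 encodes a feedback inhibitor of the EGF receptor, and some other genes of that receptor's signalling stood higher by the set term. Of 11 measured genes of a list around ERRFI1, 6 were called, all higher, where 24.6% of all genes were called and 11.5% called higher. Of the 11, 8 were above 0 and the lowest was at -0.23. EGFR itself, ERBB2, ERBB3, HBEGF and LRIG1 were not called. SPRY2, a feedback inhibitor of receptor tyrosine kinase signalling, was higher by 1.52 ± 0.11 (adjusted p = 4.3e-04), and its relative SPRY4 by 0.90 ± 0.10 (adjusted p = 9.49e-04). The ligand genes TGFA, EREG and BTC were higher by 1.39 ± 0.10 (adjusted p = 4.26e-04), 1.04 ± 0.12 (adjusted p = 0.00132) and 0.66 ± 0.16 (adjusted p = 0.0194), and the ERK phosphatase gene DUSP6 by 0.82 ± 0.18 (adjusted p = 0.0139). Of the 11 inflammatory genes that glucocorticoids are known to repress, 8 were called in this comparison, 6 higher, among them PTGS2 by 3.06 ± 0.16, and 2 lower, MMP1 by a difference of -1.20 ± 0.16 and IL11 by -1.15 ± 0.22. Of the 23 other glucocorticoid-induced genes, 12 were called, 10 higher and 2 lower. The farthest were DDIT4, higher by 1.81 ± 0.18, RASD1 by 1.70 ± 0.15 and LCN2 by 1.67 ± 0.11. The other 9 were MAOA, TIPARP, CRISPLD2, NFKBIA, MT2A, IGFBP1 and SCNN1A, which were higher, and ANGPTL4 and PIK3R1, which were lower. The inflammatory genes called beside those named were IL6, CCL2, IL1B, ICAM1 and CCL20. CXCL8, the farthest of that list with a difference of 4.91, was not called. It was at 1.98 to 2.80 in the set of 3 and at -3.02 to 1.10 in the set of 8. Its standard error for E2-BSA minus control was 1.71, where that of IL6 was 0.07. How far the variance trend set such errors was not tested. Of 12 measured paralogs of the members, TSC22D1, TSC22D4, KLF10, CEBPB and CEBPG were called (4 higher, 1 lower). Of 13 measured clock genes CRY1, BHLHE40, BHLHE41 and BMAL1 were called (3 higher, 1 lower), and of the 12 genes listed with the receptor NR3C2, STIP1, HSD11B1 and NCOA1 (3 higher, 1 lower).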
